A study of Mus musculus with 6 samples.

Results

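The genes described here are 9 genes of the LIF/Stat3 pathway, chosen by name: Lifr, Il6st, Jak1, Stat3, Socs3, Pim1, Pim3, Bcl3 and Gbx2. Every probe whose gene name on the array was one of these was taken, which gave 12 of 55681 probes on the array and 9 of 34650 gene names. All 12 probes, and so all 9 genes, passed the filter on dim probes, which left 21557 genes to test. The RNA came from mouse embryonic stem cells and was hybridised to 6 Agilent arrays in 1 colour, 3 of wild-type cells (WT, the line labelled BJ FF2 ES) and 3 of a knockout of Tet1, Tet2 and Tet3 (TKO) made from that line. The Tet genes encode the enzymes that oxidise methylated cytosine in DNA. Both groups were grown side by side in 2i conditions on inactivated mouse embryonic feeder cells and were moved to matrigel, without feeders, before 1 dish of 35 mm per sample was harvested. The labels do not say whether LIF was added to the medium, whether the TKO cells are 1 clone, or which exons were altered. The replicates are dishes of 2 lines, so p-values measure the spread between dishes and not between independent knockouts.

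LIF (leukaemia inhibitory factor) is the cytokine classically used to keep mouse embryonic stem cells undifferentiated. It binds a receptor made of Lifr and Il6st (also called gp130), the receptor-bound kinase Jak1 then phosphorylates the transcription factor Stat3, and Stat3 moves to the nucleus and switches on target genes. Among these targets are Socs3, which feeds back to block the receptor, the kinase genes Pim1 and Pim3, the transcriptional cofactor gene Bcl3 and the homeobox gene Gbx2. 2i medium holds cells in the naive state by inhibiting the kinases Mek and Gsk3.

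Levels are given as the log2 of the processed signal minus that array's 75th percentile, so that 0 is the brightness of the 75th percentile and 1 unit is a doubling. They compare arrays for 1 probe and not probes with each other. A difference is the TKO mean less the WT mean (n = 3 dishes in each), and "rose" and "fell" mean an adjusted p under 0.05 in limma's moderated test with Benjamini-Hochberg adjustment over all 21557 genes. On these arrays the 75th percentile itself was 366.9 to 412.9 intensity units, and the share of spots well above background was 51.9% to 58.5%. Across tested genes, pairs of WT arrays had a Pearson's r of 0.997 to 0.9975, pairs of TKO arrays 0.994 to 0.995, and a WT with a TKO array 0.9634 to 0.9669. The arrays lay in 2 rows of 1 slide, with the WT arrays and TKO replicate 1 in row 1 and TKO replicates 2 and 3 in row 2. TKO replicates 2 and 3 had the lowest shares of spots well above background (51.9% and 52.2%). Their negative control spots varied most, with SDs of 14.91 and 9.85 intensity units, against 3.35 to 5.73 on the other arrays. They also had 160 and 150 outlier spots, against 100 to 104. As a check of the labels, Tet1 read 3.81 to 3.88 in WT and 2.42 to 2.52 in TKO, Tet2 read 3.84 to 3.91 and 0.85 to 1.01, and Tet3 read -1.86 to -1.59 and -2.09 to -1.85. Tet1 and Tet2 RNA was lower in TKO, and the Tet3 difference did not pass (adjusted p = 0.0842).

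Of the 9 genes, 7 fell in TKO, 1 rose and 1 did not pass. The falls were in Lifr, Jak1 and Stat3, which receive and carry the signal, and in the target genes Socs3, Pim3, Bcl3 and Gbx2. The rise was in Il6st and was the smallest difference of those that passed, and Pim1 did not pass. The median difference of the 9 genes was -0.78, while that of all tested genes was -0.01. These counts stand against a large background: 59.7% of all tested genes passed in either direction, 29.7% as lower and 30.0% as higher in TKO. At a fold of 2 or more, 4 of the 9 genes passed (Gbx2, Socs3, Bcl3 and Pim3), beside 13.7% of all tested genes. The 3 WT and 3 TKO values did not overlap for 8 of the 9 genes, beside 67.6% of all tested genes. The split of the background depends on scaling: with arrays centred on their medians, the median gene difference was -0.20 and 29.4% of called genes were higher in TKO, against 50.3% with the 75th percentile. In the deposited values, centred on the 75th percentile, array medians were -4.03 to -3.97 in WT and -3.9 to -3.74 in TKO. Only 51.9% to 58.5% of spots were well above background, so the median of an array lies among dim spots.

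**Figure D1:**
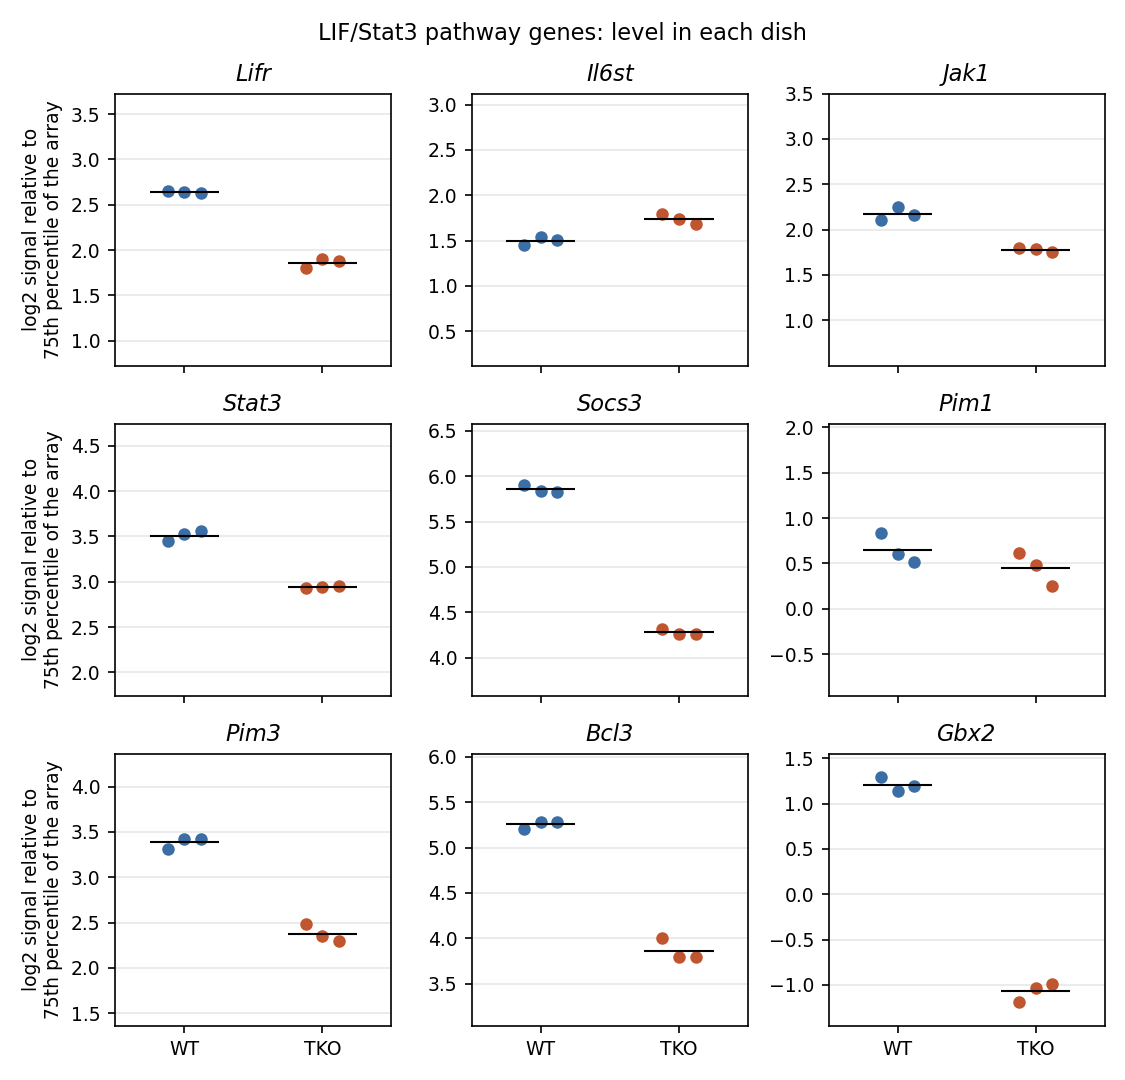
Level of each of the 9 genes in each dish (points: 3 WT in blue, 3 TKO in orange; line: group mean) as log2 signal relative to the array's 75th percentile, on axes that each span 3 log2 units. TKO points lie below WT points for 7 genes, above them for Il6st, and overlap them for Pim1.

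The receptor chains went in opposite directions. Lifr, the chain specific to LIF and its close relatives, read 2.66, 2.64 and 2.63 in WT, against 1.80, 1.90 and 1.88 in TKO, at its brightest probe (chr15:7147319-7147378, mm9, plus strand). The TKO dishes were all lower, and within each group the dishes lay close together. Lifr fell by 0.78 on the log2 scale (SE 0.041, adjusted p = 3.51e-05), to 58.2% of the WT level. Il6st, the signalling chain shared by the whole cytokine family, read 1.45, 1.54 and 1.51 in WT, against 1.79, 1.74 and 1.68 in TKO (chr13:113296586-113296645, mm9). The groups did not overlap, but the gap between them was narrow. Il6st rose by 0.24 ± 0.046 (SE; adjusted p = 0.00624), or 1.18-fold. With arrays centred on the median the Il6st difference was 0.04 and did not pass (adjusted p = 0.672), while the median gene then lay at -0.20.

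Lifr was the gene with the most probes, 3, and they differed in size. The brightest probe and a second one (A_51_P113182, chr15:7141150-7141209) are assigned to transcript variant 1, and the third (A_55_P2159264, chr15:7135072-7135131) to transcript variant 2. The variant 2 probe read -0.82, -0.71 and -0.69 in WT, against -1.84, -2.18 and -2.22 in TKO. It showed the largest Lifr difference, -1.34 ± 0.111 (SE; adjusted p = 0.000235 in the fit across 30724 probes, of which 57.1% passed), or 2.53-fold lower. The second variant 1 probe read -1.58, -1.70 and -1.58 in WT, against -1.88, -1.88 and -1.72 in TKO, a fall of 0.21 (SE 0.066, adjusted p = 0.038). All 3 probes were well above background on all 6 arrays and lower in TKO, but both of these were much dimmer than the brightest, at 84.7 to 243.3 intensity units for variant 2 and 104.0 to 130.4 for the second variant 1 probe. Taken as the difference from the brightest Lifr probe on the same array, the variant 2 probe fell further in TKO by 0.56 on the log2 scale and the second variant 1 probe less far, by 0.57. Each of these 2 contrasts separated the 3 TKO dishes from the 3 WT dishes without overlap, with p = 0.1 in a two-sided exact permutation test, which is the smallest p that 3 against 3 dishes can give. Adjusted over the 3 probe contrasts computed here, counting that of Stat3 below, both p-values were 0.15.

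Jak1, the main kinase bound to Il6st, read 2.10, 2.25 and 2.16 in WT, against 1.79, 1.79 and 1.76 in TKO (chr4:100825094-100825153, mm9). The TKO dishes were nearly equal and all below the WT dishes. Jak1 fell by 0.39 (SE 0.048, adjusted p = 0.00096), to 76.3% of WT.

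Stat3, the transcription factor of the pathway, was measured by 2 probes. The brighter one (A_51_P201480, chr11:100749598-100749657, mm9, minus strand) was printed in 10 spots per array, whose SD on an array was 0.034 to 0.087. Its mean read 3.45, 3.52 and 3.56 in WT, against 2.93, 2.95 and 2.95 in TKO. Stat3 fell by 0.57 (SE 0.042, adjusted p = 0.000126), to 67.6% of WT, a gap many times wider than the spread between dishes or spots. The second probe of Stat3 was much dimmer. It read -1.97, -2.10 and -1.89 in WT, against -2.46, -2.75 and -2.40 in TKO, a fall of 0.55 (SE 0.111, adjusted p = 0.00763 in the fit across probes). The changes at the 2 Stat3 probes differed by 0.01 (SDs of 0.111 in WT and 0.190 in TKO; two-sided exact permutation p = 0.9, and 0.9 adjusted over the 3 probe contrasts).

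Socs3, the feedback inhibitor that binds Il6st and Jak1 and is among the most direct readouts of Stat3 activity, was bright in all dishes. It read 5.90, 5.84 and 5.83 in WT, against 4.32, 4.26 and 4.26 in TKO (chr11:117827480-117827539, mm9). Socs3 fell by 1.58 (SE 0.040, adjusted p = 3.82e-06), or 2.99-fold. Bcl3, an atypical IkappaB protein that acts with NF-kappaB subunits in the nucleus, read 5.20, 5.28 and 5.28 in WT, against 4.00, 3.80 and 3.79 in TKO (chr7:20393826-20393885, mm9). Its fall of 1.39 (SE 0.070, adjusted p = 3.02e-05) was 2.62-fold, and the TKO dish of array row 1 was the highest of the 3.

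Gbx2, a homeobox factor that can keep stem cells undifferentiated downstream of Stat3, had the largest fall of the 9 genes. It read 1.29, 1.14 and 1.20 in WT, against -1.19, -1.04 and -0.99 in TKO (chr1:91825013-91825072, mm9). Gbx2 fell by 2.28 (SE 0.070, adjusted p = 6.5e-06), or 4.86-fold, to 20.6% of WT. The Gbx2 probe stayed well above background in all TKO dishes.

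The Pim genes encode serine/threonine kinases that promote survival and growth. Pim3 read 3.32, 3.42 and 3.43 in WT, against 2.48, 2.35 and 2.30 in TKO (chr15:88695626-88695685, mm9). Pim3 fell by 1.01 (SE 0.063, adjusted p = 6.5e-05), or 2.01-fold. Pim1 read 0.83, 0.60 and 0.51 in WT, against 0.61, 0.48 and 0.25 in TKO, so the groups overlapped and the dishes of each group spread more widely than for any of the other 8 genes (SD 0.165 in WT and 0.183 in TKO). The Pim1 difference was -0.20 ± 0.124 (SE; adjusted p = 0.224), with a 95% confidence interval from -0.51 to 0.11. It passed with arrays centred on the median (-0.39, adjusted p = 0.0391) and with replicate number as a block (-0.20, adjusted p = 0.0425). Pim1 rests on 1 probe in its coding sequence, which is shown as the measurement behind the gene that did not pass (chr17:29630740-29630799, mm9, plus strand).
Pim1 coding probe: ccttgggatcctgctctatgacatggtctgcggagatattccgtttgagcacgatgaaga
Pim2, the third gene of the family, was not among the 9 and went the other way. It read -1.56, -1.65 and -1.57 in WT, against 0.00, 0.41 and 0.46 in TKO, a rise of 1.88 ± 0.128 (SE; adjusted p = 8.96e-05), or 3.69-fold.

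**Figure D2:**
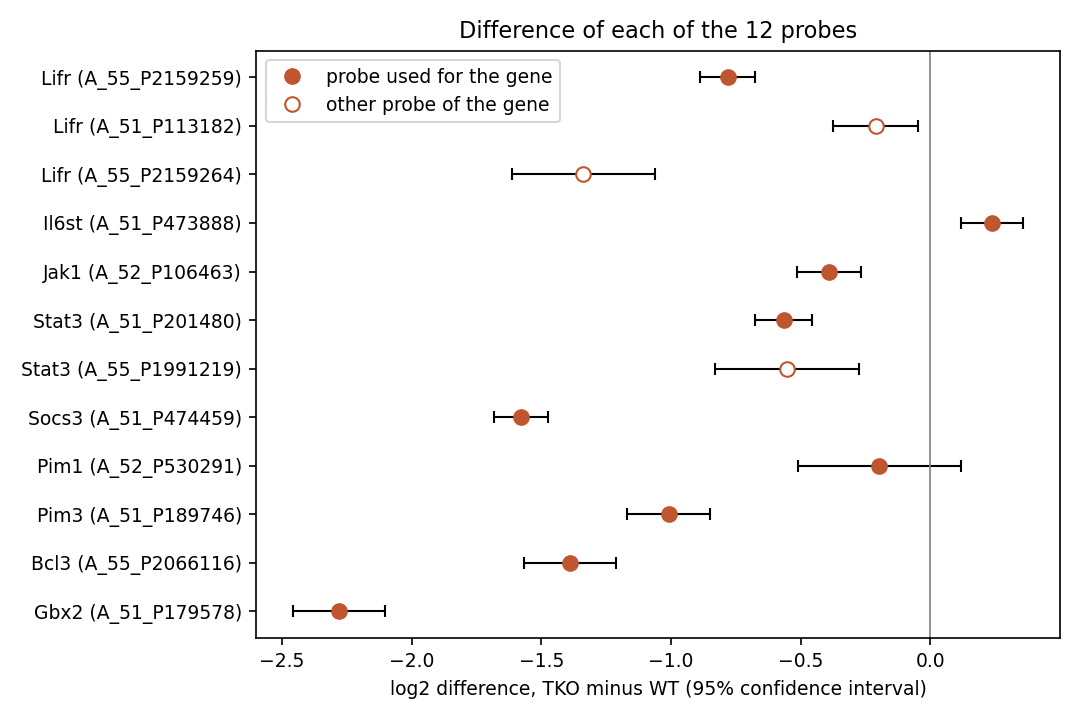
Log2 difference (TKO minus WT) with its 95% confidence interval for each of the 12 probes, from the fit across all probes kept (filled: the brightest probe, used for the gene; open: another probe of the gene). Of the 12 intervals, 10 lie below 0, that of Il6st lies above 0 and that of Pim1 spans it; the 3 Lifr probes run from -0.21 to -1.34.

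The 9 genes lie on 7 chromosomes, and some stretches of the genome were shifted as a whole between the lines, so each difference was set beside the tested genes within 5 Mb on either side. Stat3 and Socs3 lie on chromosome 11, where the median of 1615 other tested genes was 0.34 higher in TKO. Around Stat3 the median of 286 genes was 0.37, and 5.24% of them had a lower difference than Stat3. Around Socs3 the median of 229 genes was 0.33, and 2.18% had a lower difference than Socs3. Both genes thus fell in a stretch whose typical gene was higher in TKO, and their distances from the local median were -0.94 for Stat3 and -1.91 for Socs3. Gbx2 lies in a stretch of chromosome 1 with a local median of -0.20 over 130 genes, and its distance from that median was -2.08. For the other 6 genes the local median lay between -0.08 and 0.09. Their distances from it were -1.42 for Bcl3, -0.93 for Pim3, -0.87 for Lifr, -0.33 for Jak1, -0.18 for Pim1 and 0.21 for Il6st. The share of neighbours with a lower difference than the gene was 2.31% for Gbx2, 3.39% for Lifr, 5.51% for Bcl3 and 13.2% for Pim3. That share was 25.5% for Jak1, 28.6% for Pim1 and 70.2% for Il6st.

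**Figure D3:**
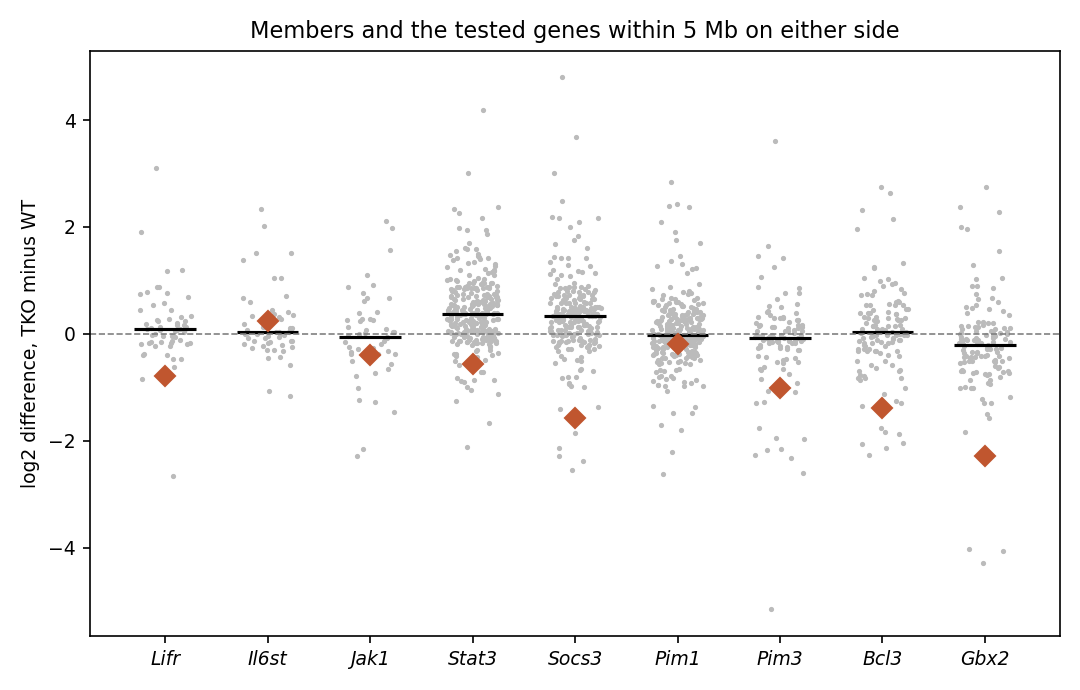
Log2 difference (TKO minus WT) of each of the 9 genes (diamond) beside the tested genes within 5 Mb on either side on the same chromosome (grey points; line: their median). Socs3 and Stat3 lie below 0 while their neighbours' medians are 0.33 and 0.37.

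Stat3 stands beside 2 other Stat genes on chromosome 11. The Stat5a probe (chr11:100746373-100746432, mm9) lies 3.22 kb from the brighter Stat3 probe, and the Stat5b probe (chr11:100642045-100642104) lies 108 kb from it. Stat5a read 0.34, 0.41 and 0.38 in WT, against -0.37, -0.55 and -0.60 in TKO, a fall of 0.88 (SE 0.069, adjusted p = 0.000156). Stat5b read 0.97, 0.93 and 0.75 in WT, against 0.74, 0.64 and 0.56 in TKO, a fall of 0.24 (SE 0.078, adjusted p = 0.0396) with a narrow gap between the groups. All 3 of these neighbouring Stat genes were therefore lower in TKO, against the direction of their surroundings.

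In the rest of the pathway, 76 of 81 listed genes were tested, of which 26 rose, 28 fell and 22 did not pass (71.1% passed, beside 59.7% of all tested genes), with a median difference of 0.03. With arrays centred on the median, 12 rose and 35 fell.

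Kinases and Stats other than Jak1 and Stat3 were lower in most cases. Of 8 tested genes, 7 fell, 0 rose and 1 (Stat4) did not pass (87.5% passed, beside 59.7% of all tested genes). The counts were the same with arrays centred on the median. Without TKO replicate 2, TKO replicate 3 or WT replicate 2, 5 fell. At an unadjusted p under 0.05 the count of rises was also 0. The largest fall was in Jak3, a kinase of lymphocyte cytokine receptors on chromosome 8, which read 1.01, 1.14 and 1.15 in WT, against -0.67, -0.78 and -0.74 in TKO (-1.83 ± 0.056 SE, adjusted p = 6.5e-06). Tyk2 fell by 0.60 (SE 0.055), Stat6 by 0.41 (SE 0.038) and Jak2 by 0.36 (SE 0.032).

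Among the tested ligand genes of the family, more rose than fell. The Lif probe itself was not well above background on any of the 6 arrays, and neither Il6 nor Clcf1 passed the filter. Of 6 tested ligand genes, 4 rose, 1 fell and 1 did not pass (83.3% passed, beside 59.7% of all tested genes, 30.0% as higher). With normexp background correction, with arrays centred on the median, or without WT replicate 3 or TKO replicate 2, 2 rose. Osm, which encodes oncostatin M, rose by 1.45 ± 0.092 (SE; adjusted p = 6.91e-05) from a low level of -4.36 to -4.32 in WT to -3.08 to -2.75 in TKO. Ctf1, which encodes cardiotrophin 1, rose by 0.70 ± 0.070 (SE). Osm lies on the raised chromosome 11.

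Among 7 other receptor genes tested, 2 rose, 3 fell and 2 did not pass (71.4% passed, beside 59.7% of all tested genes). Osmr, the partner of Il6st in the oncostatin M receptor and a close relative of Lifr, read -2.64, -2.92 and -2.77 in WT, against -1.48, -1.60 and -1.75 in TKO. It rose by 1.17 ± 0.100 (SE; adjusted p = 0.00022), the opposite of Lifr. Il11ra1, which pairs with Il6st to bind interleukin 11, rose by 0.61 ± 0.037 (SE). Il6ra, which does the same for interleukin 6, fell by 1.21 (SE 0.076, adjusted p = 6.87e-05), and Il27ra was at least 3.12-fold lower (adjusted p = 0.000542). No TKO array measured Il27ra well above background, and the bound takes, for each TKO array, the dimmest probe still well above background, or the Il27ra probe if that was brighter.

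Of 15 negative regulators besides Socs3, 6 rose, 3 fell and 6 did not pass (60% passed, beside 59.7% of all tested genes). Socs7 rose by 0.90 ± 0.054 and the phosphatase gene Ptpn2 by 0.64 ± 0.036 (SE), while Socs2 fell by 0.55 (SE 0.050) and Cish by 0.34 (SE 0.066). Socs7 lies on chromosome 11. With arrays centred on the median, 2 rose and 4 fell, and with the array row as a block, or in the first array row alone, 1 fell. The rise of Socs7 was the largest change among these 15 genes.

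Other genes known to respond to LIF in stem cells or other cells went both ways. Of 20 tested genes, 8 rose, 8 fell and 4 did not pass (80% passed, beside 59.7% of all tested genes). With arrays centred on the median, 4 rose and 9 fell. The falls held the transcription factor genes Tfcp2l1 (-1.65 ± 0.053 SE, adjusted p = 7.44e-06), a main Stat3 target in naive cells, and Junb (-1.72 ± 0.098 SE, adjusted p = 4.85e-05), on chromosome 8. Junb was well above background on 3 WT arrays but on 1 of 3 TKO arrays, so the size of its fall rests partly on TKO values not well above background. The other 6 falls of this list were in Icam1 (-1.62), Sgk1 (-1.20), Klf4 (-1.06), Sbno2 (-0.67), Klf5 (-0.65) and Fos (-0.47). Beside Pim2, the transcription factor gene Cebpd rose, by 0.91 ± 0.058 (SE). The other 6 rises of this list were in Ccnd1 (0.45), Bcl2l1 (0.42), Mcl1 (0.35), Kdm3a (0.30), Hif1a (0.30) and Sall4 (0.18). Myc differed by 0.31 ± 0.139 (SE) and did not pass (adjusted p = 0.102).

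LIF receptors also signal through Ras, Mapk, phosphoinositide 3-kinase and Src family kinases. Here 6 of 20 genes rose, 6 fell and 8 did not pass (60% passed, beside 59.7% of all tested genes). With arrays centred on the median, 2 rose and 10 fell. Yes1, a Src family kinase, fell by 0.76 (SE 0.065). Pik3cb, a catalytic subunit of phosphoinositide 3-kinase, rose by 0.56 ± 0.054 (SE).

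**Figure D4:**
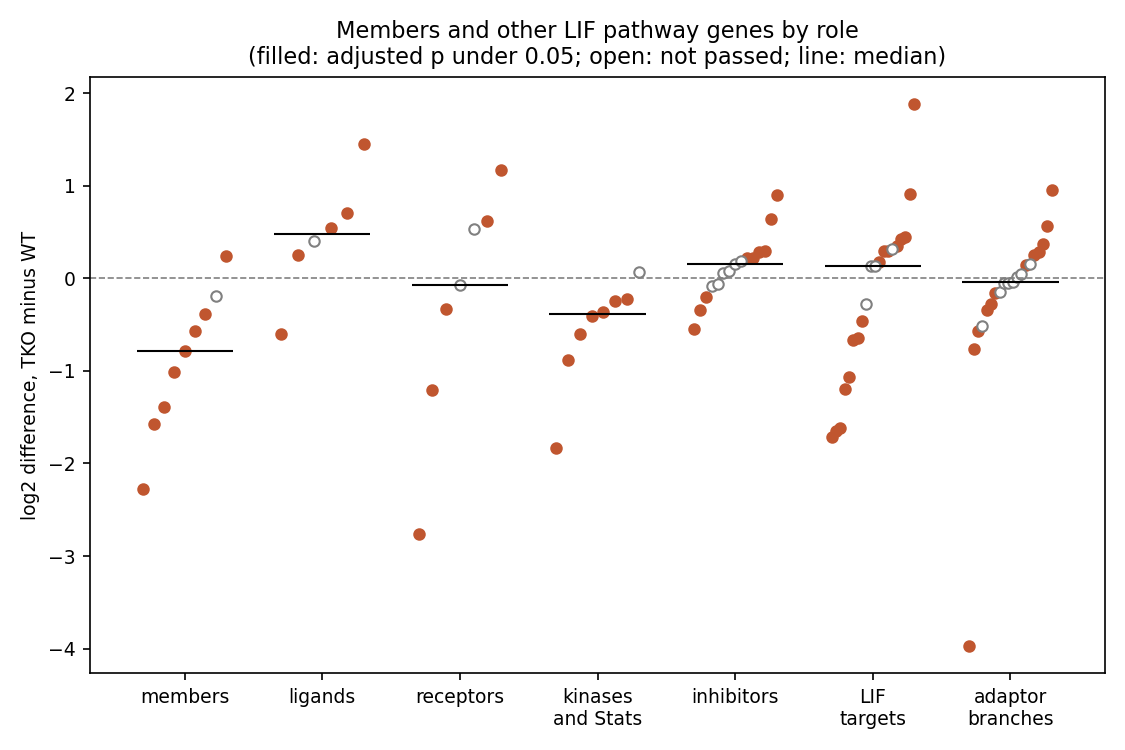
Log2 difference (TKO minus WT) of each tested gene of the pathway by role (filled: adjusted p under 0.05; open: not passed; line: median of the group). Of the tested kinases and Stats 7 fell and 0 rose; of the tested ligands 4 rose and 1 fell, with 2 rises where arrays were centred on the median.

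By the distance between values centred on each gene's mean over the 6 arrays, the 3 genes with a symbol whose pattern was nearest to that of Stat3 were Socs2 (distance 0.038 log2 units), Rasa4 (0.041) and Arhgef7 (0.053). Their differences were -0.55, -0.57 and -0.53. The likeness rests on 6 arrays in 2 groups and mainly reflects a group difference of similar size.

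RefSeq promoter windows (GRCm38.p6, 250 bases before to 50 bases after a gene start) were found for all 9 genes, 11 windows in all. CpG sites, at which Tet enzymes act, are dense in most of them: the observed over expected CpG ratio had a median of 0.85 over the 11 windows and of 0.38 over all 32851 windows. The genes with the 3 largest falls all had CpG-rich starts, with ratios of 0.86 for Gbx2, 0.77 for Socs3 and 0.73 for Bcl3. Pim3, Lifr at its first window and Jak1, which fell less, had higher ratios of 1.12, 1.07 and 0.95. Stat3, which also fell, had 0.55. Pim1, which did not pass, had 0.85 at its first window, and Il6st, which rose, had 0.94. A link between the ratio and the differences was not tested. The lowest ratios were at second windows, 0.19 for Lifr and 0.28 for Pim1. The 250 bases before the start of Gbx2 (chr1:89931177-89931426), Socs3 (chr11:117969367-117969616) and Bcl3 (chr7:19822756-19823005), all on the minus strand, are shown 5′ to 3′ with CpG sites in capitals, as the starts of the genes that fell most. They hold 18, 26 and 19 CpG sites.
Gbx2: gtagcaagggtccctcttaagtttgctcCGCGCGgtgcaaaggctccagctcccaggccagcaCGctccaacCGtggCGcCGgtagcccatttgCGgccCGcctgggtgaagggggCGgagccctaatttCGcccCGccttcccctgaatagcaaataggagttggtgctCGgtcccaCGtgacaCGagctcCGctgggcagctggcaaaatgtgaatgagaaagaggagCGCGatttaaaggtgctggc
Socs3: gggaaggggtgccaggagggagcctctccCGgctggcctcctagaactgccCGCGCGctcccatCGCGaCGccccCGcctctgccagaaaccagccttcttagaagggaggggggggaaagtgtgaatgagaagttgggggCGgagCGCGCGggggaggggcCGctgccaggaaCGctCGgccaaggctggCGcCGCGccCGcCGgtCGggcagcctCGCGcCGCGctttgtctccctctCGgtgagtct
Bcl3: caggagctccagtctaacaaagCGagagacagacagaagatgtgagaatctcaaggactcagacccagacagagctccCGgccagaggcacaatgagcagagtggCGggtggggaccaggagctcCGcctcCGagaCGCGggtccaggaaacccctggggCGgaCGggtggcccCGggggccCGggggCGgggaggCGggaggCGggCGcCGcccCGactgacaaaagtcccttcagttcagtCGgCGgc
The Stat motif TTCNNNGAA reads the same on both strands. It was found in 1 of the 11 windows (9.09%) and in 8.30% of all windows. Of 25 windows of 14 genes in the list of other LIF-responsive genes, 5 (20.0%) held it. The difference between these shares was not tested. The 1 match among the 11 windows was in the Socs3 window, where it reads TTCTTAGAA and begins 154 bases before the start. The absence of these letters from the other windows says nothing about binding of Stat3 elsewhere, and DNA methylation was not measured.

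The cells carried the markers of their label: all 10 stem cell markers listed, among them Pou5f1, Sox2 and Nanog, were tested, and their summed level was 800.4 to 874.3 in WT and 746.3 to 808.8 in TKO, in units of the 75th percentile signal. Of these 10 markers, 3 rose and 5 fell (80% passed, beside 59.7% of all tested genes). The rises were in Fgf4 (0.46), Lin28a (0.29) and Sall4 (0.18), and Utf1 and Dppa5a did not pass. The falls were in Tdgf1 (-1.05), Esrrb (-0.48), Pou5f1 (-0.42), Sox2 (-0.36) and Nanog (-0.31). Without Dppa5a, which made up 31.3% to 38.4% of the sum, it was 534.0 to 558.3 in WT and 485.2 to 499.9 in TKO, which did not overlap, while the sums with it did. Their part in the differences of the pathway genes was not tested. Of 16 fibroblast (feeder) markers, 15 were tested, and Lum was not well above background on any array. Of the 15, 10 rose and 2, Pdgfrb (-2.26) and Fn1 (-0.23), fell (80% passed). Their summed level was 167.0 to 170.6 in WT and 164.3 to 177.0 in TKO, of which Fn1 made up at least 62.3%; without Fn1 the sum was 41.7 to 43.1 in WT and 62.0 to 65.1 in TKO. Of 8 primitive endoderm markers, 4 rose and 3 fell (87.5% passed). Their sum was 163.2 to 168.2 in WT and 321.9 to 332.1 in TKO, and at least 98.4% of it was Sparc, a gene on chromosome 11. Without Sparc it was 2.62 to 2.69 in WT and 1.73 to 1.87 in TKO. All these sums add probes of unlike brightness, so bright probes weigh most, and the shares are of signal and not of RNA. Fewer cells of a type and less RNA per cell cannot be told apart in such samples, and the part of feeder cells in the differences of Il6st, Osmr and the other genes was not tested.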

How the data were processed

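The authors deposited 1 Agilent Feature Extraction file per sample (version 11.5.1.1, a number taken from the submitters' processing notes). Processed signal, mean signal and local background are intensity values per the file headers, and the processed signal was background-subtracted and detrended within each array. The deposited 0 or 1 flags mark spots as outliers, as saturated or as well above background, another kind of value. The authors also deposited log2 values centred so that the 75th percentile of each array is 0, as found by comparison with the scanner values; scale, centring and direction are not given in the sources used here. Their column medians were -3.97, -3.97 and -4.03 for WT and -3.9, -3.74 and -3.82 for TKO. No spot was saturated (0 on each array).

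Control and outlier spots were left out, spots of a probe averaged, and 75th percentile-scaled log2 signals tested with limma 3.58.1 in R 4.3.3. Probes well above background on at least 3 of 6 arrays were kept, with the brightest probe per gene; probes with a missing value were dropped. The script was tested on simulated data. Probe positions are mm9 per the file headers; that the printed Pim1 probe lies in coding sequence is from knowledge of the protein, not from an annotation. The number of arrays limits precision. Members, lists and tests were chosen with earlier results of these data known, so a direction already known is not independent support. Named genes were the 9 members with every probe, up to 2 rises and 2 falls per role list among called genes without overlap (some are not reported here), and the 3 genes nearest to Stat3; other genes of the lists, Tet1 to Tet3 and markers were named after their values were seen.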

Additional observations from a re-analysis of the deposited data

How the results depend on the processing

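The 7 falls among the 9 genes (Lifr, Jak1, Stat3, Socs3, Pim3, Bcl3, Gbx2) each kept their direction and passed under all 18 alternatives run, which covered background correction, scaling, filters, the choice of probe, the deposited table, the fit across probes, blocks, eBayes options and leaving out each dish. The count of members lower was 7 under leave-one-out throughout and 8 with median centring. With arrays centred on the median, 0 members were higher, 12 other pathway genes were higher, and the counts were 2 ligands, 2 inhibitors, 4 LIF targets and 2 adaptor genes higher and 10 adaptor genes lower. Normexp gave 2 ligands higher, the mean of a gene's probes 0 ligands lower, and 1 inhibitor was lower both with a block for array row and in the first row alone; the cause was not tested. The first row holds 1 TKO dish, assumed to vary like the WT dishes. Leaving out 1 dish gave 2 to 4 ligands higher and 5 to 7 kinases and Stats lower. Pim1 ranged from -0.39 to -0.03 and Il6st from 0.04 to 0.29.

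Same-numbered WT and TKO dishes did not deviate together across genes (correlations -0.07, -0.02 and 0.01), and the main fit did not pair them. Whether dishes of the same number were handled together cannot be read from these correlations. With replicate number as a block, 8 members were lower and 1 higher, and 11616 genes passed in place of 12859. The added fall was Pim1, whose SE was 0.051 with the block and 0.124 without it. The number of arrays and, for dim probes such as those of Osm, Junb and Il27ra, signal near background limit the values.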
